A study of Mus musculus with 6 samples.

Results

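The solute carrier genes described here are protein-coding mouse genes named Slc, a family number, the letter a and a member number, with at least 1 FPKM in each of 6 RNA-seq libraries. FPKM is the deposited level per gene, in normalised by the authors for transcript length and library depth. Of 51912 gene records, 342 had such a name and 310 were left once the Slc2a and Slc16a families and Slc40a1, Slc11a1, Slc11a2, Slc8a1, Slc7a11 and Slc4a1 were set aside. Of these 310, 129 genes of 37 families reached the level, and 181 were below 1 FPKM in some library. The deposited FPKM values chose the members, so their levels are given as a description. Because a member had to reach 1 FPKM on both scaffolds, a gene that was silent on either one could not be among them.

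The 3 hHVS libraries and the 3 PCL libraries came from bone marrow mononuclear cells (BMMNCs), each named for the scaffold material on which the cells had grown for 10 days. What hHVS stands for is not stated in the labels; PCL usually means polycaprolactone, a man-made polyester. Both groups carry the genotype label WIDETYPE, read here as wild type, and no strain, sex or age is given. Poly(A) RNA was sequenced from the cultured cells, and the labels leave unsaid whether the 3 libraries of a scaffold stem from 3 cultures or animals or from 1. The p-values therefore reflect variation among these libraries alone, which may be technical.

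Solute carriers are membrane proteins that move ions, metals, amino acids, nucleosides, vitamins and metabolites without burning ATP themselves: they run down a gradient or couple 1 solute to another. Macrophages digest what they engulf, and carriers of the endosome and lysosome pass the freed haem, amino acids, peptides and nucleosides on to the cytosol. Carriers of the inner mitochondrial membrane exchange nucleotides, phosphate, iron and intermediates of metabolism. The ZnT and ZIP families mostly move zinc out of and into the cytosol.

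Estimated counts totalled 75.1 to 83.6 M units in the hHVS libraries and 72.1 to 74.1 M units in the PCL libraries. About 4 units per fragment were inferred from an excess of the value 4 among the counts. The first principal component of all genes, with 28.3% of the variance, separated the scaffolds (-40.1 to -31.7 for hHVS libraries, 30.5 to 39.7 for PCL libraries). The second, with 23.3%, placed hHVS replicate 2 and PCL replicate 3 on one side and the remaining 4 libraries on the other. Macrophage marker genes (11 records) summed to 11584 to 12149 FPKM on hHVS and 8884 to 10455 FPKM on PCL. Most of this sum was Lyz2, at 9166, 8510 and 9085 FPKM on hHVS and 5938, 7110 and 7431 FPKM on PCL. Cd68, the next in level, had overlapping groups (log2 fold change 0.06). Of the 11, 8 had positive log2 fold changes, and 0 passed edgeR's test at an adjusted p under 0.05 (5 at an unadjusted p under 0.05). DESeq2 called 4: Lyz2, Mertk and Mrc1, higher on hHVS, and Cd14, lower on hHVS (edgeR log2 fold change -1.01). The 14 stromal markers summed to 4.82 to 25.2 FPKM on hHVS and 13.0 to 56.4 FPKM on PCL; 13 were tested, 0 passed with edgeR (3 at an unadjusted p under 0.05; DESeq2 called Dcn), all 13 had negative log2 fold changes, and Lum was at 0 in every hHVS library. Megakaryocyte markers (4 genes) summed to 63.3 to 87.8 FPKM on hHVS and 36.7 to 63.8 FPKM on PCL. Nearly all of this was Pf4, at 62.9, 87.3 and 67.4 FPKM on hHVS and 51.6, 36.1 and 63.5 FPKM on PCL. Ppbp, Itga2b and Gp9 were at 0.628 FPKM or less in every library. DESeq2 called Pf4, and edgeR did not (edgeR adjusted p = 0.262). Granulocyte markers (8 genes) summed to 12.9 to 15.7 FPKM on hHVS and 11.8 to 16.3 FPKM on PCL. Erythroid markers (8 genes) summed to 10.3 to 10.8 FPKM on hHVS and 8.74 to 10.6 FPKM on PCL. Mast cell and lymphocyte markers (6 genes each) summed to at most 0.125 and 0.231 FPKM on hHVS and 0.148 and 0.230 FPKM on PCL. Of all these markers 1 passed with edgeR, the erythropoietin receptor gene Epor, with 1.68, 1.18 and 1.03 FPKM on hHVS and 0.342, 0.186 and 0.417 FPKM on PCL (edgeR adjusted p = 0.0499); it lost the call with limma-voom (0.0615) and when any 1 of the 6 libraries was left out (0.0623 to 0.173). The part of differences in single macrophage and stromal markers in the results on carriers was not tested. In bulk RNA, fewer cells of a type and less RNA per cell cannot be told apart.

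The levels spanned from 1.38 FPKM for Slc25a26 to 286 FPKM for Slc48a1, as means over the 6 libraries, with a median of 7.36 FPKM. Only 4 members exceeded 100 FPKM and 58 had 10 FPKM or more, while 42 were under 5 FPKM and 8 under 2 FPKM. The 4 most abundant were Slc48a1, which passes haem from the lysosome to the cytosol, the taurine carrier Slc6a6 (154 FPKM), the ADP/ATP carrier Slc25a5 (134 FPKM), and Slc3a2 (103 FPKM), the heavy chain that escorts several amino acid carriers to the cell surface. Together the 129 genes summed to 2351, 2416 and 2426 FPKM on hHVS and 2443, 2397 and 2506 FPKM on PCL, which was 0.680% to 0.709% of all FPKM on hHVS and 0.715% to 0.769% on PCL. Between libraries of a scaffold the members varied little, with a median coefficient of variation of 5.99% on hHVS and 9.40% on PCL. PCL replicate 3 held the highest FPKM of the 6 libraries for 41 members, and the other 5 libraries held it for 12 to 21 members each. The lowest FPKM lay in hHVS replicate 1 for 30 members, in PCL replicate 2 for 25 and in PCL replicate 3 for 23. The remaining libraries held the lowest for 13 to 17 members each.

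**Figure D1:**
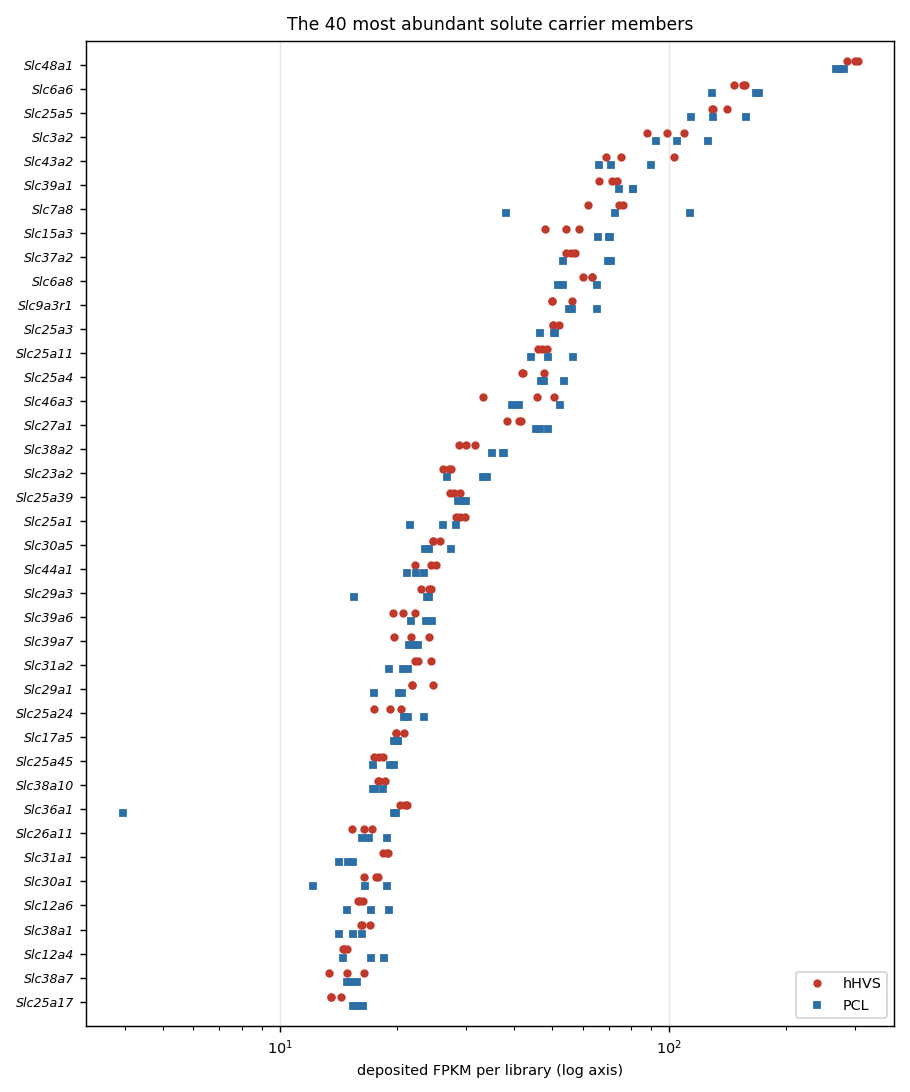
Deposited FPKM per library (log axis) of the 40 most abundant members, from the highest mean down; red circles are the 3 hHVS libraries and blue squares the 3 PCL libraries. Most genes have overlapping points, Slc31a1 has its hHVS points (18.4 to 19.0 FPKM) above its PCL points (14.2 to 15.4 FPKM), and Slc36a1 has a single PCL point at 3.96 FPKM far below the other 5.

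No member passed edgeR's test between scaffolds, and the nearest to it were the copper importer Slc31a1 and the amino acid carrier Slc38a6, each with its 3 hHVS values above its 3 PCL values. With edgeR's quasi-likelihood test, adjusted over all 16364 genes tested, 0 of 129 members had an adjusted p under 0.05, where 0.862% of all genes tested and 0.938% of protein-coding genes with 1 FPKM or more in every library did; the smallest adjusted p among members was 0.0651, for the copper importer Slc31a1. At an unadjusted p under 0.05 stood 25 members (19.4%; 17 with positive and 8 with negative log2 fold changes). Beside this stood 13.1% of all genes tested (6.99% positive, 6.14% negative) and 15.4% of the expressed protein-coding genes (8.23% positive, 7.13% negative). Limma-voom called 0 members, against 0.776% of all genes. DESeq2 called 7 members (5.43%), against 3.93% of the 16352 genes tested with edgeR that it gave an adjusted p (642 called) and 4.23% of expressed protein-coding genes: Slc31a1, Slc38a6, Slc9a9, Slc30a4, Slc39a8 and Slc25a37 with positive values and Slc15a4 with a negative one. Without PCL replicate 3 the smallest adjusted p among members was 0.0773 with edgeR, and without hHVS replicate 2 it was 0.170, both for Slc31a1.

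The differences were small. A value written with ± is a log2 fold change, hHVS minus PCL, and its SE. Log2 fold changes of the members, hHVS minus PCL, ran from -0.51 (Slc7a5) to 0.61 (Slc9a9) with a median of 0.02, where the median over all genes tested was -0.01. The median size was 0.12 for members and also for expressed protein-coding genes. A size of 0.5 or more was reached by 3 members (2.33%), namely Slc9a9, Slc36a1 and Slc7a5, beside 4.21% of expressed protein-coding genes and 17.9% of all genes tested. For 126 of the 129 the 95% interval of the fold lay inside 0.5 to 2, the 3 others being Slc7a5, Slc36a1 and Slc35a2, and for 103 it lay inside 0.667 to 1.5. Signs near 0 depended on scaling: 69 members were positive and 60 negative with TMM factors, 46 and 83 with library totals, which moved the median of all genes by -0.081, and 51 and 78 on the log2(FPKM + 1) scale. The libraries of the scaffolds did not overlap in FPKM in 37 members (28.7%; 17 higher and 20 lower on hHVS), beside 23.1% of all genes tested (6.91% higher, 16.2% lower) and 27.2% of expressed protein-coding genes (6.61% higher, 20.6% lower). In TMM-adjusted CPM 35 members did not overlap (27.1%; 24 higher and 11 lower), beside 20.6% of all genes (10.7% higher, 9.89% lower) and 23.4% of expressed protein-coding genes (12.1% higher, 11.3% lower). CPM is the count scaled to the library total, here adjusted by the TMM factors. Below, overlap of a gene's groups is read from FPKM, where more genes lay lower than higher on hHVS.

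**Figure D2:**
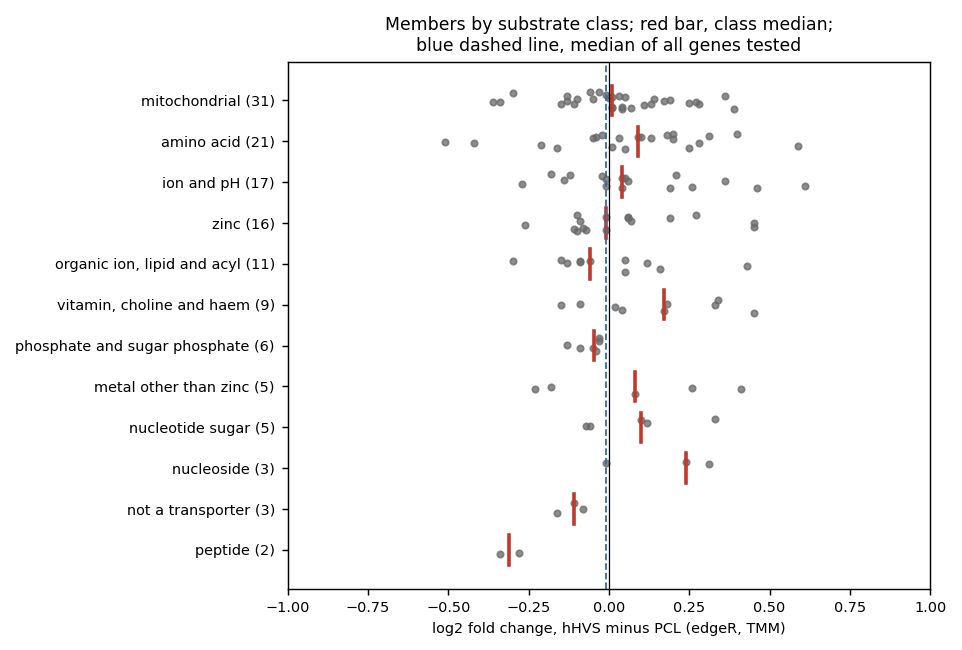
Log2 fold change of each member (hHVS minus PCL, TMM factors), grouped by substrate class with the number of members in brackets; grey points are genes, red bars class medians, and the dashed blue line the median of all genes tested. The class medians lie between -0.31 (peptide, 2 genes) and 0.24 (nucleoside, 3 genes), and every class of 5 or more genes except phosphate has points on both sides of 0.

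Among metal carriers other than those of zinc (5 members), both copper carriers had higher values on hHVS. Slc31a1 (Ctr1, GRCm38 chr4:62360727-62391769, plus strand), the copper importer of the plasma membrane, was at 18.9, 18.4 and 19.0 FPKM on hHVS and at 14.2, 15.4 and 15.0 FPKM on PCL. All 3 hHVS libraries stood above all 3 PCL libraries, and the spread within each scaffold was small. Its log2 fold change was 0.41 ± 0.07 (SE; 95% interval 0.24 to 0.58, edgeR adjusted p = 0.0651, DESeq2 adjusted p = 0.00168), and leaving out 1 library at a time gave 0.37 to 0.45. Slc31a2 (Ctr2, chr4:62262562-62298411, plus strand), a relative of endosomes and lysosomes that affects copper stores, was at 24.4, 22.3 and 22.7 FPKM on hHVS and at 19.1, 21.4 and 20.7 FPKM on PCL. Its groups did not overlap either, with a log2 fold change of 0.26 ± 0.09 (SE, edgeR adjusted p = 0.269). The 3 magnesium carriers of the Slc41a family had 0.08, -0.23 and -0.18 for Slc41a1, Slc41a2 and Slc41a3, and with library totals none of the 3 was positive.

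The promoters of the copper pair and of Slc30a4, a zinc carrier of vesicles, are shown because these 3 metal carriers had hHVS libraries above PCL libraries and because the metal response element is the textbook motif of metal-regulated genes. The zinc and manganese carrier Slc39a8 also had hHVS libraries above PCL libraries, and its 2 windows, with 0 cores and 1 core, are not printed. Each is the 250 bases before a RefSeq transcript start on GRCm38.p6, 5′ to 3′ on the gene's strand, with capitals marking the core of the metal response element (TGCACNC or TGCGCNC, searched on both strands; the alternatives cannot both match at 1 position). The windows are chr4:62360451-62360700 (plus strand) for Slc31a1, chr4:62286179-62286428 (plus strand, before a start inside the annotated gene) for Slc31a2 and chr2:122702664-122702913 (minus strand) for Slc30a4.
Slc31a1: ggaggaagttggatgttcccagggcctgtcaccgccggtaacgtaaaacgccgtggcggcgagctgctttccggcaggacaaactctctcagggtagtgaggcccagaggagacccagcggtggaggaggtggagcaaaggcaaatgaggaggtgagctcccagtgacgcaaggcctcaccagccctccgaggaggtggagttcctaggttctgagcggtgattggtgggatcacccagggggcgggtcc
Slc31a2: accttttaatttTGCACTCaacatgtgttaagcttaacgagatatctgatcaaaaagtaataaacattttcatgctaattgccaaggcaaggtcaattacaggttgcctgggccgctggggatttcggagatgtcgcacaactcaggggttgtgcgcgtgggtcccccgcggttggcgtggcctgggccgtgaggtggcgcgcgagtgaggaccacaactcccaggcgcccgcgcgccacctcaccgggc
Slc30a4: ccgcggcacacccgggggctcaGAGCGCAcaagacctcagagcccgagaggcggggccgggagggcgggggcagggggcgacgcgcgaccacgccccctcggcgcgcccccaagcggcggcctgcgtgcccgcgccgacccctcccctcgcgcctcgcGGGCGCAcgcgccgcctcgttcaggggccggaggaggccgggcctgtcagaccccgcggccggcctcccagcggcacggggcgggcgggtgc
Slc31a1 held 0 cores in this window, Slc31a2 held 1, starting at -238 from the start, and Slc30a4 held 2, at -228 and -92. The window of the zinc exporter Slc30a1, whose groups overlapped, was also searched and is not printed. It held 1 core, at -43. Of all 32851 RefSeq windows 21.4% held a core. RefSeq windows were matched to 100 of the 129 members, of which 38 held a core in at least 1 window, and 6 of the 14 zinc carriers with a window did; a gene can have several windows, so shares of genes and of windows are not on the same footing. A match is a run of letters, not a shown binding site.

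Zinc carriers (16 members) had no common direction. Of the 6 ZnT genes (Slc30a), a family that mostly carries zinc out of the cytosol, 3 were positive. Of the 10 ZIP genes (Slc39a), which carry it in, 4 were. With library totals the ZnT and ZIP counts were 2 and 2. The most abundant was Slc39a1 (Zip1), a ZIP of the plasma membrane, with 66.1, 73.4 and 71.5 FPKM on hHVS and 74.2, 80.9 and 80.6 FPKM on PCL, a log2 fold change of -0.09 ± 0.07 (edgeR adjusted p = 0.655). Its FPKM ranges did not overlap, but 21.8% of its 50-base words also occur in other genes, most of them in the pseudogene Slc39a1-ps, and reads of the copies may be split. Slc30a1, the zinc exporter of the plasma membrane, was at 17.9, 17.7 and 16.5 FPKM on hHVS and at 16.6, 18.9 and 12.2 FPKM on PCL, so the groups overlapped (0.19 ± 0.16, edgeR adjusted p = 0.659). Without PCL replicate 3, its lowest library, the value was 0.03, and without PCL replicate 2 it was 0.36.

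The zinc members farthest from 0 were both low in level. Slc30a4 (chr2:122681233-122702663, minus strand) was at 3.64, 3.36 and 4.14 FPKM on hHVS and at 2.79, 3.03 and 2.73 FPKM on PCL. Slc39a8 (Zip8, an importer of zinc and manganese, chr3:135825279-135888572, plus strand) was at 2.18, 2.21 and 2.48 FPKM on hHVS and at 1.73, 1.54 and 2.01 FPKM on PCL. Neither gene's groups overlapped. Both had a log2 fold change of 0.45 (SE 0.11 and 0.12), with edgeR adjusted p of 0.153 for Slc30a4 and 0.158 for Slc39a8, while DESeq2 called both (adjusted p of 0.0345 for Slc30a4 and 0.0421 for Slc39a8). Summed ZIP FPKM over summed ZnT FPKM was 2.42, 2.50 and 2.53 on hHVS and 2.72, 2.81 and 2.86 on PCL, a description with no test. The ZIP gene Slc39a4 was left out by the threshold, being below 1 FPKM in some PCL libraries. Its log2 fold change was larger, at 1.45 ± 0.28 (edgeR adjusted p = 0.0763), and DESeq2 called it. Of 4 tested genes for zinc binding and response 0 passed with edgeR (1 at an unadjusted p under 0.05) and 0 with DESeq2; the metallothionein gene Mt1, which zinc and other metals induce, was the most abundant, at 34.0, 49.2 and 42.4 FPKM on hHVS and 40.2, 44.9 and 56.3 FPKM on PCL, with overlapping groups.

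The class of vitamin, choline and haem carriers (9 members) was led by Slc48a1 (Hrg1, chr15:97778520-97792692, plus strand), which alone made up 11.8% to 12.7% of the members' summed FPKM on hHVS and 11% to 11.8% on PCL. It was at 300, 286 and 305 FPKM on hHVS and at 269, 282 and 275 FPKM on PCL. The lowest hHVS library lay just above the highest PCL library, and the log2 fold change was 0.18 ± 0.07 (SE; 95% interval 0.02 to 0.34, edgeR adjusted p = 0.314). Slc19a2, a thiamine carrier, was at 2.57, 2.70 and 2.70 FPKM on hHVS and at 2.26, 1.66 and 2.21 FPKM on PCL, without overlap (0.45 ± 0.14, edgeR adjusted p = 0.222). The proton-coupled folate carrier Slc46a1 was at 5.46, 5.14 and 4.83 FPKM on hHVS and at 3.41, 5.50 and 3.86 FPKM on PCL, where 1 PCL library exceeded every hHVS library (0.34 ± 0.19, edgeR adjusted p = 0.495; 0.20 without PCL replicate 1 and 0.59 without PCL replicate 2). Both choline carriers were positive, Slc44a1 at 0.17 and Slc44a2 at 0.33, also with library totals. Over the class 7 of 9 log2 fold changes were positive, 5 with library totals, and the median was 0.17, or 0.09 with library totals. Classes were drawn by family number, so the vitamin carrier Slc5a6 (-0.09 ± 0.13) was counted with the organic ions.

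Amino acid carriers (21 members) were the second most numerous class, with 14 positive log2 fold changes, 11 with library totals. With edgeR 0 passed the threshold, and DESeq2 called Slc38a6 (adjusted p = 0.00566). This class, drawn by family number, also takes in the sialic acid carrier Slc17a5, the taurine carrier Slc6a6, the creatine carrier Slc6a8, the vesicular nucleotide carrier Slc17a9 and the purine base carrier Slc43a3. Slc6a6 was at 155, 147 and 157 FPKM on hHVS and at 167, 170 and 129 FPKM on PCL: the hHVS libraries lay between the PCL libraries, and the sign of its log2 fold change (0.05 ± 0.12) turned to -0.03 with library totals. For Slc3a2 the values were 87.5, 109 and 99.0 FPKM on hHVS and 105, 92.3 and 126 FPKM on PCL (-0.05 ± 0.12). Slc7a5 (Lat1), a light chain that pairs with Slc3a2 to bring in large neutral amino acids, was far lower and scattered widely, at 1.49, 3.59 and 1.98 FPKM on hHVS and at 3.94, 2.17 and 4.46 FPKM on PCL. Its 95% interval ran from -1.35 to 0.33 (log2 fold change -0.51 ± 0.36, edgeR adjusted p = 0.596), so it reached past a level on hHVS of 0.5 times that on PCL. The value was -0.28 without hHVS replicate 1, -0.94 without hHVS replicate 2 and -0.32 without PCL replicate 3. Slc7a8, of the same family as Slc7a5, was far more abundant. It was at 61.9, 76.3 and 74.3 FPKM on hHVS and at 72.8, 38.0 and 113 FPKM on PCL (0.01 ± 0.33).

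Slc1a5 and Slc38a2 bring glutamine and other neutral amino acids into cells, and both lay lower in FPKM in every hHVS library. Slc38a1, a carrier with similar substrates, had a log2 fold change of 0.18 ± 0.08. Slc1a5 (Asct2, chr7:16781340-16798274, plus strand), an exchanger, was at 5.75, 7.26 and 6.29 FPKM on hHVS and at 7.44, 9.19 and 10.6 FPKM on PCL (log2 fold change -0.42 ± 0.14, edgeR adjusted p = 0.262). Slc38a2 (Snat2), a sodium-coupled importer of small neutral amino acids, was at 30.1, 28.9 and 31.7 FPKM on hHVS and at 35.0, 37.6 and 37.5 FPKM on PCL (-0.21 ± 0.07, edgeR adjusted p = 0.285). Neither passed the threshold with edgeR or DESeq2, though the groups of neither gene overlapped in FPKM. For Slc1a5 the gap was narrow, from 7.26 FPKM on hHVS to 7.44 FPKM on PCL. Slc38a6 (Snat6, chr12:73286779-73354049, plus strand), of the same family as Slc38a2, lay the other way, at 5.26, 5.13 and 5.33 FPKM on hHVS and at 4.24, 4.26 and 4.03 FPKM on PCL (0.40 ± 0.07, edgeR adjusted p = 0.0753). Of its 50-base words 35.5% occur in other genes too, most in Noct, so its counts are uncertain. The ratio of Slc38a6 to Slc38a2 was 0.175, 0.178 and 0.168 on hHVS and 0.121, 0.113 and 0.107 on PCL. A two-sided exact permutation test gave p = 0.1, the smallest that 3 against 3 libraries allow. Adjusted over the 6 ratios tested, pairs chosen with values known, it was 0.15. Both genes' groups already stood apart in opposite directions, so this p was fixed by those values and adds nothing to them.

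Among lysosomal amino acid carriers, 1 library set the value of Slc36a1. Slc36a1 (Pat1), which exports small amino acids from the lysosome together with protons, was at 20.4, 21.0 and 21.2 FPKM on hHVS and at 19.9, 19.6 and 3.96 FPKM on PCL. The low value came from PCL replicate 3 alone: the log2 fold change was 0.59 ± 0.51 (edgeR adjusted p = 0.673) with that library and 0.14 without it (edgeR adjusted p = 0.347); without PCL replicate 2 it was 0.89. Slc38a9, the lysosomal arginine sensor of the mTORC1 pathway, was at 4.70, 5.25 and 5.03 FPKM on hHVS and at 5.67, 5.62 and 4.94 FPKM on PCL (-0.04 ± 0.09). Of 24 tested genes of lysosomal amino acid sensing, 0 rose and 1 fell past the threshold with edgeR, beside 0.862% of all genes tested. An unadjusted p under 0.05 was reached by 7 (5 higher and 2 lower on hHVS), beside 13.1% of all genes tested. The gene past the threshold was Rragb, a Rag GTPase of low level, at 0.125, 0.0838 and 0.101 FPKM on hHVS and at 0.517, 0.471 and 0.474 FPKM on PCL (log2 fold change -2.14 ± 0.32, edgeR adjusted p = 0.0374). DESeq2 called Rragb and also Rragd, which was higher on hHVS. Rragd was at 6.05, 6.65 and 6.47 FPKM on hHVS and at 4.86, 4.12 and 3.34 FPKM on PCL (0.71 ± 0.14, edgeR adjusted p = 0.0839). The most abundant of the list, Rragc, was at 73.5, 77.9 and 75.2 FPKM on hHVS and 66.9, 74.0 and 66.3 FPKM on PCL. The call on Rragb was lost without the filter on low counts (edgeR adjusted p = 0.0588) and when any 1 library was left out (edgeR adjusted p 0.0658 to 0.167).

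Both peptide carriers lay lower on hHVS. Slc15a3 and Slc15a4 export histidine and short peptides from endosomes and lysosomes, and Slc15a4 is also needed for signalling by endosomal Toll-like receptors. Slc15a3 was at 54.4, 58.6 and 48.1 FPKM on hHVS and at 70.4, 65.5 and 70.1 FPKM on PCL. Slc15a4 (chr5:127595664-127632897, minus strand) was at 9.59, 9.43 and 8.33 FPKM on hHVS and at 12.3, 11.7 and 12.4 FPKM on PCL. For both genes every hHVS library was below every PCL library in FPKM. The log2 fold changes with TMM factors were negative, and neither passed with edgeR: -0.28 ± 0.08 for Slc15a3 (edgeR adjusted p = 0.213) and -0.34 ± 0.08 for Slc15a4 (edgeR adjusted p = 0.130). DESeq2 called Slc15a4 (adjusted p = 0.0383). Exons of Tmem132a on the opposite strand cover 28.1% of the exon bases of Slc15a3, and the strand setting of the counting is not stated, so reads of the 2 genes may be mixed. The ratio of Slc15a3 to Slc15a4 overlapped between scaffolds, at 5.67, 6.22 and 5.78 on hHVS and 5.72, 5.58 and 5.64 on PCL (exact permutation p = 0.2, 0.24 adjusted over 6 ratios). Of the other ratios, Slc31a1 over Slc31a2 and Slc25a5 over Slc25a4 also gave an exact p of 0.1, and Slc29a1 over Slc29a3 gave 1.0.

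Of the nucleoside carriers (3 members), Slc29a1 (Ent1), which equilibrates nucleosides across the plasma membrane, was at 24.8, 21.9 and 21.9 FPKM on hHVS and at 17.5, 20.6 and 20.2 FPKM on PCL. Its groups did not overlap (log2 fold change 0.31 ± 0.10, edgeR adjusted p = 0.248). Slc29a3 (Ent3), the nucleoside exporter of the lysosome, whose loss causes histiocyte disorders in people, was at 23.0, 24.5 and 24.2 FPKM on hHVS and at 23.9, 24.2 and 15.5 FPKM on PCL. Here again the low value was that of PCL replicate 3, and the log2 fold change of 0.24 ± 0.17 became 0.05 without it. The sodium-coupled Slc28a2 was at -0.01, with 35.4% of its 50-base words shared, most with Gm14085. Of 15 tested genes of nucleoside salvage and breakdown 0 passed with edgeR (1 at an unadjusted p under 0.05) and 0 with DESeq2; the most abundant, the purine salvage gene Hprt, was at 116, 117 and 104 FPKM on hHVS and at 109, 108 and 140 FPKM on PCL.

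**Figure D3:**
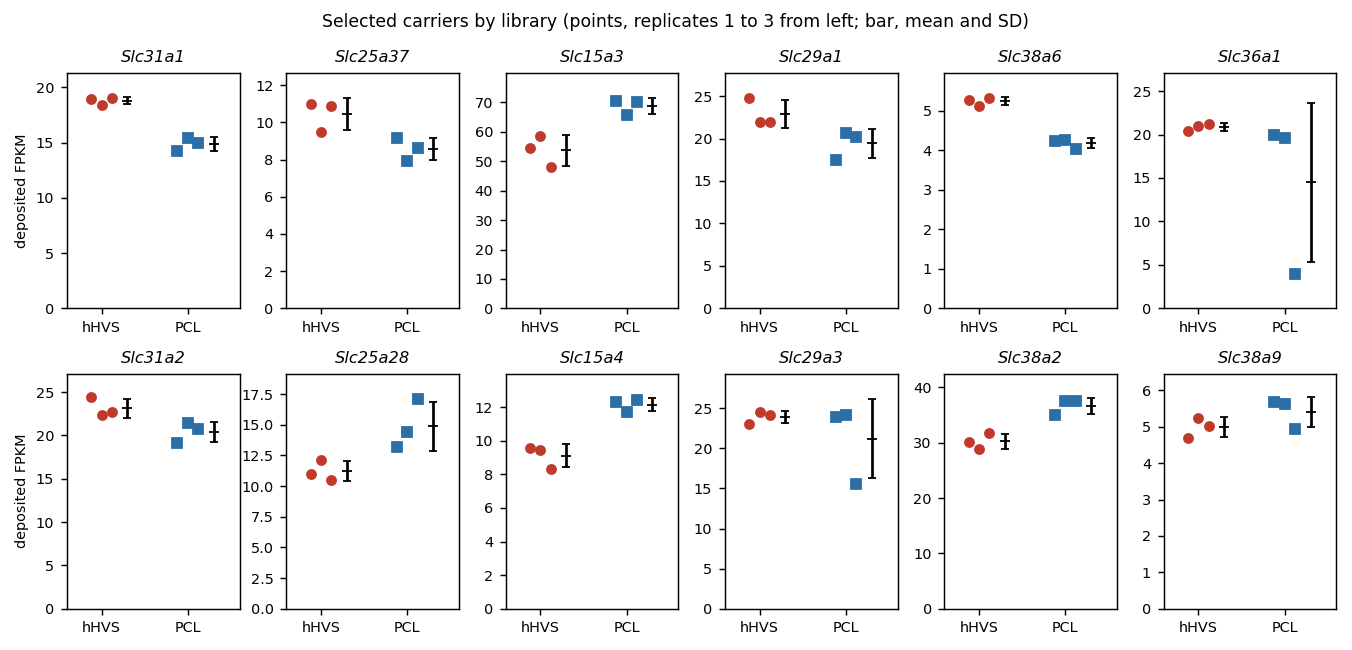
Deposited FPKM of 12 members in related pairs, 1 pair per column: copper (Slc31a1, Slc31a2), mitochondrial iron (Slc25a37, Slc25a28), peptide (Slc15a3, Slc15a4), nucleoside (Slc29a1, Slc29a3), neutral amino acid (Slc38a6, Slc38a2) and lysosomal amino acid (Slc36a1, Slc38a9). Points are libraries 1 to 3, bars the mean and SD (n = 3) for hHVS on the left and PCL on the right, and axes start at 0; the mitochondrial iron pair and the neutral amino acid pair lie in opposite directions, and PCL replicate 3 is low for Slc36a1 (3.96 FPKM) and Slc29a3 (15.5 FPKM).

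Mitochondrial carriers (31 members of Slc25a) were the largest class and centred on 0, with 18 positive log2 fold changes, 10 with library totals, and a median of 0.01, or -0.07 with library totals. This class, drawn by family number, also takes in the peroxisomal carrier Slc25a17 (-0.13 ± 0.07) and the outer membrane protein Slc25a46 (0.04 ± 0.07). Log2 fold changes of the main carriers of oxidative phosphorylation were close to 0. Slc25a5 (Ant2), an ADP/ATP exchanger, was at 130, 141 and 129 FPKM on hHVS and at 114, 130 and 158 FPKM on PCL (0.07 ± 0.11, -0.01 with library totals), with 33.8% of its 50-base words shared, most with the pseudogene Gm5560. Its sister Slc25a4 (Ant1) was at 41.9, 47.7 and 42.2 FPKM on hHVS and at 46.9, 47.7 and 53.6 FPKM on PCL (-0.10 ± 0.08). The phosphate carrier Slc25a3 was at 52.0, 50.2 and 50.3 FPKM on hHVS and at 46.7, 50.6 and 50.8 FPKM on PCL (0.11 ± 0.07). None of the 3 passed with edgeR or DESeq2, and the 95% intervals of their log2 fold changes reached no farther than -0.29 and 0.34.

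The mitoferrins, which bring iron into mitochondria for haem and iron-sulfur clusters, lay in opposite directions, neither of them past the threshold with edgeR; DESeq2 called Slc25a37 (adjusted p = 0.0477). Mitoferrin 1, Slc25a37 (chr14:69241848-69285112, minus strand), was at 11, 9.46 and 10.9 FPKM on hHVS and at 9.14, 7.92 and 8.63 FPKM on PCL. Mitoferrin 2, Slc25a28 (chr19:43663801-43674881, minus strand), named for its place in this pair after its values were seen, was at 11, 12.1 and 10.5 FPKM on hHVS and at 13.2, 14.4 and 17.1 FPKM on PCL. Each gene's groups stood apart without overlap. The log2 fold change was 0.36 ± 0.09 for Slc25a37 (edgeR adjusted p = 0.162) and -0.34 ± 0.12 for Slc25a28 (edgeR adjusted p = 0.266). The ratio of Slc25a37 to Slc25a28 was 0.997, 0.779 and 1.04 on hHVS and 0.692, 0.548 and 0.504 on PCL (two-sided exact permutation p = 0.1, the smallest possible, or 0.15 adjusted over 6 ratios). Both genes' groups already stood apart in opposite directions, so their ratio had to separate too. The p of this ratio was fixed by those values and adds nothing to them. Slc25a15, the ornithine carrier of the urea cycle, was at 2.22, 2.07 and 2.0 FPKM on hHVS and at 1.75, 1.54 and 1.76 FPKM on PCL (0.39 ± 0.11, edgeR adjusted p = 0.181). Of 14 tested mitochondrial carriers and channels with other names 0 passed with edgeR (2 at an unadjusted p under 0.05) and 0 with DESeq2; the most abundant, Ucp2, was at 108, 102 and 99.4 FPKM on hHVS and at 114, 113 and 127 FPKM on PCL.

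Among carriers of ions and pH (17 members), the sodium-proton exchangers of the Slc9a family were positive in 6 of 6 genes, but in only 3 of 6 with library totals; 0 passed with edgeR, and DESeq2 called Slc9a9 (adjusted p = 0.00198). Slc9a9 (Nhe9, chr9:94669909-95230445, plus strand), which lets protons out of endosomes, was at 13.2, 16.7 and 15.1 FPKM on hHVS and at 11.7, 10.8 and 8.42 FPKM on PCL. It had the highest log2 fold change of the 129 members, 0.61 ± 0.14 (95% interval 0.28 to 0.94, edgeR adjusted p = 0.124), with 0.48 to 0.70 when 1 library was left out. Slc9a5 was at 2.18, 1.80 and 2.43 FPKM on hHVS and at 1.77, 1.21 and 1.93 FPKM on PCL, with overlap (0.46 ± 0.19, edgeR adjusted p = 0.371; 0.30 without PCL replicate 2). The most abundant of the class, the sulfate and chloride carrier Slc26a11, was at 15.3, 16.5 and 17.3 FPKM on hHVS and at 18.8, 16.3 and 17 FPKM on PCL (-0.01 ± 0.08). Slc24a5 shares 39.5% of its exon bases with Myef2 on the opposite strand, and its value of 0.36 ± 0.24 is uncertain for that reason.

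All 6 carriers of phosphate and sugar phosphate had negative log2 fold changes, but small ones, from -0.13 to -0.03. Library totals moved the median of all genes by -0.081, so they could hardly turn a negative sign, and none turned. Slc37a2, a sugar phosphate carrier of the endoplasmic reticulum that macrophages express strongly, was at 57.3, 56.1 and 54.5 FPKM on hHVS and at 69.5, 53.5 and 71.0 FPKM on PCL: PCL replicate 2 lay below all hHVS libraries, and the log2 fold change was -0.13 ± 0.10 (edgeR adjusted p = 0.629). Slc37a4, the glucose 6-phosphate carrier, was at 4.68, 4.42 and 3.59 FPKM on hHVS and at 5.22, 4.44 and 4.51 FPKM on PCL (-0.09 ± 0.13). Its sign was not held in every fit with 1 library left out.

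The 11 carriers of organic ions, lipids and acyl groups had 5 positive values, 3 with library totals. The fatty acid transport protein gene Slc27a1 was at 38.3, 41.1 and 41.6 FPKM on hHVS and at 45.6, 46.6 and 48.9 FPKM on PCL, without overlap (-0.15 ± 0.06, edgeR adjusted p = 0.384). Slc45a4 was at 8.19, 7.90 and 8.39 FPKM on hHVS and at 6.90, 7.27 and 4.89 FPKM on PCL (0.43 ± 0.15, edgeR adjusted p = 0.293; 0.26 without PCL replicate 3). Slc22a18 was at 2.14, 2.71 and 2.50 FPKM on hHVS and at 3.59, 2.19 and 3.74 FPKM on PCL (-0.30 ± 0.22, edgeR adjusted p = 0.609; -0.49 without PCL replicate 2, -0.20 without PCL replicate 1 and -0.18 without PCL replicate 3). Slc45a4 had no overlap between groups and Slc22a18 did. Nucleotide sugar carriers, which feed glycosylation in the Golgi, had 5 members with values from -0.07 to 0.33. Slc35a2, the UDP-galactose carrier, was at 3.29, 3.38 and 2.07 FPKM on hHVS and at 1.36, 3.26 and 2.64 FPKM on PCL (0.33 ± 0.33; 0.04 without PCL replicate 1, 0.53 without hHVS replicate 3 and 0.63 without PCL replicate 2). The log2 fold change of the UDP-N-acetylglucosamine carrier Slc35a3 was 0.12 ± 0.07, and that of the most abundant, Slc35a4, was -0.06 ± 0.13. The name pattern takes in neither the other Slc35 subfamilies nor the Slco genes; 21 of those 36 genes were tested and 0 passed with edgeR (4 at an unadjusted p under 0.05; DESeq2 called Slco2b1). Of these Slc35b2, the carrier of the sulfate donor PAPS, was the most abundant, at 25.3, 25.2 and 24.3 FPKM on hHVS and 23.3, 24.2 and 26.0 FPKM on PCL.

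**Figure D4:**
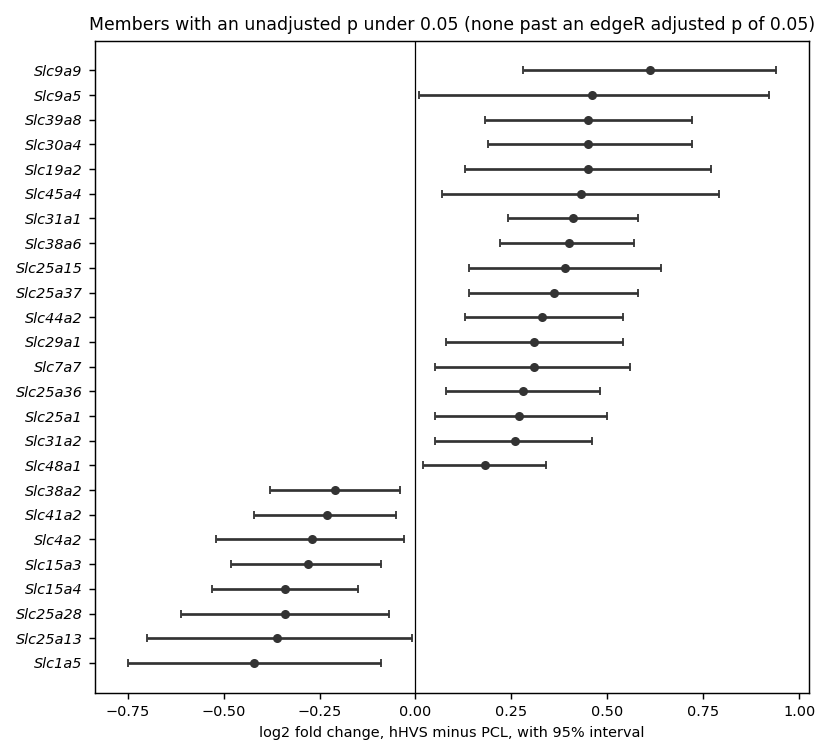
Log2 fold change (hHVS minus PCL) with its 95% interval for the 25 members with an unadjusted p under 0.05, chosen by that p, so that their intervals exclude 0 by construction. The 17 positive genes reach from 0.18 (Slc48a1) to 0.61 (Slc9a9) and the 8 negative ones from -0.42 (Slc1a5) to -0.21 (Slc38a2); none passed the adjusted threshold with edgeR, while DESeq2 called 7 of them.

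Names of 3 members match the pattern although their products are no transporters: the scaffold protein gene Slc9a3r1 (Nherf1) at 49.9, 56.3 and 49.9 FPKM on hHVS and 55.3, 56.3 and 65.4 FPKM on PCL (-0.11 ± 0.09), Slc4a1ap at -0.08 ± 0.08 and Slc7a6os at -0.16 ± 0.13. Just inside the threshold of 1 FPKM, by their lowest library, were Slc9a5 and Slc25a26 (both 1.21 FPKM), Slc12a2 (1.22 FPKM), Slc35a2 (1.36 FPKM) and Slc25a40 (1.37 FPKM). Just outside were Slc29a2 (0.990 FPKM), Slc25a14 (0.981 FPKM), Slc5a3 (0.758 FPKM), Slc36a2 (0.723 FPKM) and Slc39a4 (0.671 FPKM). Of the 181 candidates below the threshold, 168 were under 1 FPKM in every library, 75 of them at 0 throughout, and 13 were above it in some. The largest positive value of these 10 genes at the threshold was that of Slc39a4, known as the zinc importer of the gut, at 2.54, 1.78 and 2.60 FPKM on hHVS and 0.671, 1.18 and 0.787 FPKM on PCL (log2 fold change 1.45 ± 0.28, edgeR adjusted p = 0.0763). Of the 57 candidates below the threshold that were tested, 0 passed with edgeR (10 at an unadjusted p under 0.05) and 4 with DESeq2 (Slc13a3, Slc39a4, Slc6a4 and Slc9a2).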

How the data were processed

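Messenger RNA of 6 samples (3 hHVS, 3 PCL, grouped by sample title) was measured by RNA-seq with a stranded poly(A) kit, per the labels' protocols. The authors deposited 1 table of estimated counts per gene and 1 table of FPKM values per gene (51912 records each). Per the submitters' processing notes, FastQC, MultiQC, STAR and featureCounts were used on mm10; their versions, and which of them made each table, are not stated. The counts had been assumed raw when the test was chosen. Their excess of the value 4 (6544 cells, against 2701 with 3 and 1483 with 5) points to rounded estimates of about 4 units per fragment, so counting noise was left to the spread between libraries. Values were used as deposited.

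Genes were filtered with filterByExpr (minimum count 10; 16364 of 26793 genes with any count kept), scaled by TMM and compared with edgeR 4.0.16 (quasi-likelihood F test, R 4.3.3; group as the only term; Benjamini-Hochberg over all genes tested, threshold 0.05). The common biological coefficient of variation was 24.0%. Intervals are 95% from the fit's SE. Ratios of 2 genes were tested with a two-sided exact permutation test. Alternatives used limma 3.58.1 and DESeq2 1.42.0, other scalings and filters, a replicate block, and each library left out. The scripts were tested on simulated data.

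Coordinates, overlaps and shared 50-base words came from GENCODE M21 on GRCm38, the assembly of mm10, and promoters from RefSeq (GRCm38.p6). Members, classes and lists were chosen with earlier results of these data known. Genes were named by rule: for each class of 3 or more members the most abundant and the 2 with the largest log2 fold change, a fixed set of well-known carriers, the 5 genes on each side of the FPKM threshold, and of other lists those past the threshold and the most abundant. Others were named after their values were seen, as partners of a pair or relatives, for shared sequence, or because DESeq2 called them.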

Additional observations from a re-analysis of the deposited data

How the results depend on the processing

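The count of 0 members past the threshold held under library totals, DESeq2 size factors, limma-voom, both FPKM scales, no filter, counts divided by 4, the replicate block, each library left out, and membership by a mean of 1 FPKM (134 genes) or by 5 FPKM in every library (76 genes); DESeq2 called 7. Over all genes edgeR called 141 of 16364, DESeq2 with its own filter 664 of 17934 (642 of them among the genes tested with edgeR), log2(FPKM + 0.1) 84 and edgeR without the filter 76, and leaving out 1 library gave 31 to 164. With library totals the class medians were 0.01 (amino acid), -0.04 (ion and pH), 0.00 (metal other than zinc), -0.07 (mitochondrial), 0.16 (nucleoside), -0.13 (phosphate), 0.09 (vitamin, choline and haem) and -0.09 (zinc). With 1 library left out they ranged over 0.03 to 0.12 (amino acid), -0.02 to 0.09 (ion and pH), -0.02 to 0.05 (mitochondrial), 0.05 to 0.36 (nucleoside), -0.06 to 0.10 (organic ion), 0.12 to 0.22 (vitamin, choline and haem) and -0.02 to 0.03 (zinc). Of 555 pairs of a named member and a setting, 542 kept the direction. The sign turned for Slc25a5 (-0.01) and Slc6a6 (-0.03) with library totals and for Slc6a6 on both FPKM scales (-0.01), and with 1 library left out for Slc25a5 (-0.04 to 0.19), Slc26a11 (-0.05 to 0.04), Slc35a4 (-0.19 to 0.03), Slc37a4 (-0.18 to 0.02), Slc38a9 (-0.12 to 0.00), Slc3a2 (-0.14 to 0.06), Slc6a6 (-0.08 to 0.14), Hprt (-0.07 to 0.11) and Mt1 (-0.22 to 0.03); the cause was not tested.

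The labels do not state whether the replicate numbers pair the samples, and the correlations between libraries cannot settle it. Correlations of same-numbered libraries were 0.117, -0.00951 and -0.0607, and not every library correlated best with its own number. The highest, 0.153, was that of hHVS replicate 2 with PCL replicate 3. With the number as a block 36 genes and 0 members were called, and the smallest adjusted p among members was 0.221 (edgeR). Precision is limited by 3 libraries a scaffold, possibly technical replicates, by estimated in place of raw counts, and by a strand setting that is not stated.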
